A study of Mus musculus with 9 samples.

Results

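The proteasome genes described here are the protein-coding genes of the mouse whose symbol matches ^Psm[a-g][0-9], that is Psma, Psmb, Psmc, Psmd, Psme, Psmf and Psmg followed by a digit. There were 50 of them among the 54532 genes of the deposited table. The rule reads symbols and no measured value, but it was chosen with earlier results of these data known. Of these, 47 had a mean of at least 0.5 FPKM (fragments per kilobase of exon, scaled by library depth) over the 9 libraries and were tested. The other 3 were low. Psmb11, a core subunit known from thymus, was listed at 0 in every library. Psma8, a core subunit known from testis, had 0.0368 to 0.502 FPKM. Psmc3ip had 0.0739 to 0.310 FPKM, and it is a meiotic recombination factor that shares the symbol pattern but is no proteasome subunit. A further 4 genes that match the pattern are annotated as pseudogenes and were left out.

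The libraries came from liver RNA of mice in 3 groups of 3. The betaine knockout group carried a Cth knockout and drank water with 1% betaine. The knockout group carried the same knockout and drank plain water. The wild type group had no knockout and also drank plain water. The enzyme encoded by Cth, cystathionine gamma-lyase, splits cystathionine to yield cysteine. Betaine donates a methyl group to homocysteine. The labels give neither sex, age, strain nor the kind of Cth allele. They do not say that the libraries of a group are separate animals, so p-values measure only the spread between these libraries. In whole liver, fewer cells of a type and less RNA per cell cannot be told apart. Cth itself had 0.319, 0.309 and 0.781 FPKM in betaine knockout, 0.583, 0.278 and 0.77 FPKM in knockout and 285, 257 and 219 FPKM in wild type libraries. Its log2 fold change was -7.95 ± 0.23 for knockout minus wild type, and each library matched its genotype label. Wild type replicate 3 stood apart, with 26.6 FPKM of Xist against at most 0.0124 FPKM in the other 8 libraries and no reads of Uty, Kdm5d, Eif2s3y or Ddx3y, which lie on the Y chromosome. Results are therefore also given without it. Recovered reads numbered 15184973 to 17473958 per library, and 3 reads in a gene of 1 kb equal 0.162 to 0.222 FPKM, for counting error only. The summed level of 6 hepatocyte markers was 32786 to 45881 FPKM in betaine knockout, 40531 to 52342 FPKM in knockout and 47147 to 64618 FPKM in wild type libraries, of which Alb, the gene of serum albumin, made up the most. Of these markers Apoa1 and Serpina1a, genes of plasma proteins, were called higher in knockout against wild type and Cps1, a urea cycle enzyme, lower. The summed level of 5 endothelial markers was 15.3 to 24.3 FPKM in betaine knockout, 19.01 to 24.5 FPKM in knockout and 24.6 to 42.2 FPKM in wild type libraries, with Kdr called lower in knockout. The part of these markers in the proteasome levels was not tested.

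The proteasome is the protease that degrades proteins tagged with ubiquitin. Its core particle is a stack of alpha and beta rings, in which the beta subunits Psmb5, Psmb6 and Psmb7 carry the active sites. A regulatory particle, made of a base with ATPases (Psmc genes) and a lid, binds, unfolds and feeds in the substrate. Interferon signalling induces Psmb8, Psmb9 and Psmb10, which replace Psmb5, Psmb6 and Psmb7 in newly made core particles, and the activator Psme1 with Psme2. In mammals the transcription factor Nfe2l1 raises the transcription of proteasome genes when proteasome activity is low, through antioxidant response elements.

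Promoter windows of these genes, 250 bases before to 50 bases after the transcript start, were taken from RefSeq on GRCm38.p6 for the 42 of 50 genes that had one. The stretches of Psmb5 and Psmb6 are shown because these catalytic subunits had the highest fold changes of their ring in knockout livers. The stretch of Psmb9 is shown because this subunit had the highest fold change in betaine knockout livers and shares its promoter with Tap1, a peptide transporter gene of antigen presentation. In the Psmb5 stretch (chr14:54617996-54618075, minus strand) and the Psmb6 stretch (chr11:70525277-70525356, plus strand) the capitals mark a match to TGACNNNGC, the core letters of an antioxidant response element. In the stretch between the starts of Psmb9 and Tap1 (chr17:34187331-34187555, plus strand, with Psmb9 reading to the left and Tap1 to the right) the capitals mark CCAAT and a match to TGANNNNGC on the opposite strand.
Psmb5: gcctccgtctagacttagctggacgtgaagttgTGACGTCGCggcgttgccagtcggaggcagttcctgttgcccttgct
Psmb6: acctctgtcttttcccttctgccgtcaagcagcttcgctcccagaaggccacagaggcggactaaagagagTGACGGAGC
Psmb9 to Tap1: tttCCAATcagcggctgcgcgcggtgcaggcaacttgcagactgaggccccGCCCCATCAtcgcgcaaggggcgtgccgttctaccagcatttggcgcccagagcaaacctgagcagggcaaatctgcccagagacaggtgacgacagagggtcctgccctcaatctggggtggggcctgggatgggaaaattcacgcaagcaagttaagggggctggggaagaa
The RefSeq starts of Psmb9 and Tap1 are 225 bases apart, and their 300-base windows share 275 bases. In the GENCODE M21 annotation, used for gene positions and exon lengths below, Psmb9 starts further upstream and includes this stretch. A gene was counted where any of its windows held a match, and the 42 genes include Psmc3ip. On either strand, TGACNNNGC was found in 6 of the 42 genes (14.3%), against 13.99% of 27025 genes. The looser TGANNNNGC, which includes every match to TGACNNNGC, was found in 24 genes (57.14%) against 45.05%. CCAAT was found in 15 genes (35.7%) against 41.1%. The gamma activated letters TTCNNNGAA were found in 3 (7.14%) against 9.55%. The interferon-stimulated response element was found in 5 genes (11.9%), against 3.99% of all genes. These genes were Psmb3, Psmd4, Psmd9, Psme1 and Psmg4. This element was not found in the windows of Psmb8, Psmb9 or Psme2. Neither this element nor the gamma activated letters were found in the printed stretch between Psmb9 and Tap1. Besides Psmb5 and Psmb6, TGACNNNGC was found in Psme4, called lower in knockout livers against wild type, and in Psmc6, Psmd12 and Psmd9, not called. It was not found in Psmb3, Psma4, Psma7, Psme1 or Psme2, which were called higher. A relation of these letters to fold change was not tested. The matches describe the letters of the windows and not binding.

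The knockout was compared with wild type to see which proteasome transcripts differ when the enzyme is missing. Of the 47 tested proteasome genes, 19 were higher and 2 lower in knockout livers (limma, adjusted p under 0.05), while 12.8% of all 11852 tested genes were called higher and 12.7% lower. With the values rescaled to TPM, which gives every library the same sum, the proteasome counts were 9 higher and 11 lower, while 4.96% of all tested genes were then called higher and 31.0% lower. The median log2 fold change of the 47 genes was 0.35, against 0.02 over all tested genes. Rescaling to TPM moved the median of all genes to -0.36 and that of the proteasome genes to -0.06, so that they stayed 0.30 above the median of all genes. The difference from the median of all genes was 0.34 as deposited, 0.31 after scaling by own read totals and 0.22 after quantile normalization. Under each of these scalings none of the 21 called genes changed sign. Under TPM 9 of the 19 higher calls and both lower calls were kept, and those of Psma2, Psmb1, Psmb2, Psmb4, Psmc3, Psmc5, Psmd4, Psmd14, Psmf1 and Psmg1 were lost.

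Exon length moved with these differences. Proteasome transcripts ranged from 555 bases of exon (Psmg4) to 8382 (Psme4), and across the 47 genes fold change and length had a Spearman rho of -0.47, against -0.46 across all genes. These are descriptions without a test, since genes share libraries. Among the 3950 shorter tested genes, of up to 2677 bases of exon, 24.1% were called higher and 2.81% lower in knockout livers, with a median log2 fold change of 0.35. The 22 proteasome genes of that length had 12 higher and none lower, with a median of 0.48. The 25 longer proteasome genes had 7 higher and 2 lower, with a median of 0.17. With the length trend of each library removed, 13 proteasome genes were higher and 4 lower, with a median of 0.12 against 0.00 over all genes. All tested genes had 9.01% higher and 9.56% lower calls in that fit. Of the proteasome calls, 12 of the 19 higher and both lower ones were kept, and those of Psmb2, Psmb4, Psmb5, Psmc5, Psmd14, Psmg1 and Psmg4 were lost. In that limma fit Psmc2 was newly called higher (log2 fold change 0.49, adjusted p = 0.04). Psmd7 (log2 fold change -0.41, adjusted p = 0.0211) and Psme3 (log2 fold change -0.51, adjusted p = 0.0327) were newly called lower. Without wild type replicate 3 the counts were 12 higher and 2 lower, while 9.99% of all genes were called higher and 11.7% lower.

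**Figure D1:**
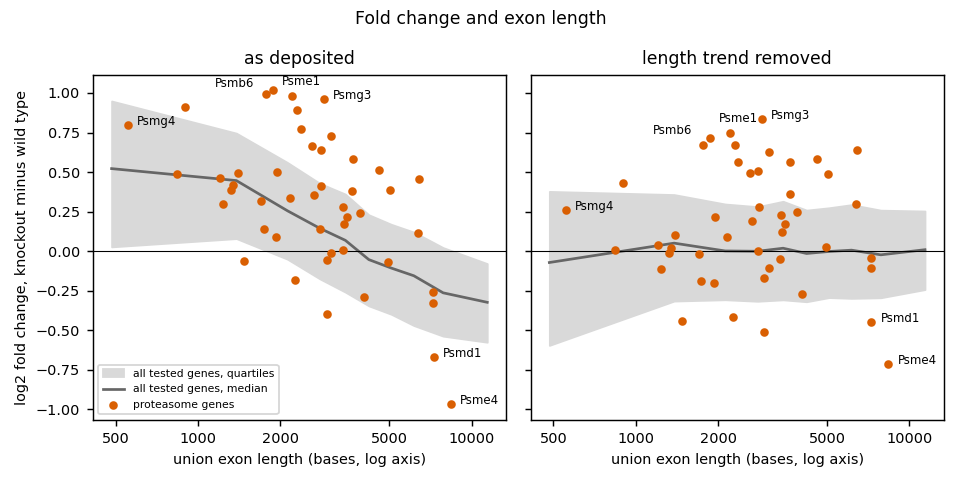
Log2 fold change of knockout minus wild type (vertical axis) against union exon length in bases (horizontal log axis) for 47 proteasome genes (orange points), with the median (line) and quartiles (grey band) of all tested genes, as deposited on the left and with the length trend removed on the right. On the left the points fall with length as the grey band does; on the right Psmb6, Psme1 and Psmg3 lie above the band and Psmd1 and Psme4 below it.

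The constitutive core particle had the most calls. Of its 14 tested genes 9 were higher and none lower in knockout livers, beside 12.8% and 12.7% of all tested genes. Their median log2 fold change was 0.51. Without wild type replicate 3, 7 were higher (9.99% of all genes), and with the length trend removed 6 were (9.01% of all genes). After rescaling to TPM 5 were higher and 1 lower, beside 4.96% and 31.0% of all tested genes. The geometric mean level of these 14 genes, computed on FPKM + 0.5, was 36.1 to 45.8 in betaine knockout, 48.2 to 48.4 in knockout and 29.5 to 36.1 in wild type libraries. As deposited, the 3 knockout libraries lay above all others and close together, and the betaine libraries spanned the gap between them and wild type. After rescaling to TPM the level, on TPM + 0.5, was 89.5 to 95.2 in betaine knockout, 82.5 to 90.03 in knockout and 78.1 to 79.7 in wild type libraries. On that scale both knockout groups lay above wild type, and betaine knockout overlapped with the upper end of knockout.

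Psmb5 carries the chymotrypsin-like active site and was the most abundant core transcript per exon length in all 9 libraries. It measured 122, 89.6 and 113 FPKM in the 3 betaine knockout libraries, 145, 154 and 148 FPKM in the 3 knockout libraries and 90.1, 101 and 54.3 FPKM in the 3 wild type libraries. The knockout libraries did not overlap with the other groups, and Psmb5 rose in knockout livers against wild type (log2 fold change 0.91 ± 0.22, adjusted p = 0.0189). Wild type replicate 3 held the lowest value, and the log2 fold change was 0.64 without it (adjusted p = 0.0226). With the length trend removed it was 0.43 and the call was lost (adjusted p = 0.104), as it was without knockout replicate 2 (adjusted p = 0.0691) or 3 (adjusted p = 0.0536).

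Psmb6 carries the caspase-like active site. It measured 75.5, 48.6 and 57.5 FPKM in betaine knockout, 82.6, 94.3 and 84.9 FPKM in knockout and 42.8, 53.6 and 34.1 FPKM in wild type libraries. All knockout values lay above all others, and Psmb6 had the highest fold change of the 47 genes in knockout against wild type (log2 fold change 1.02 ± 0.20, adjusted p = 0.01). This call was kept under every scaling, with the length trend removed and when any library was left out. Psmb7, with the trypsin-like active site, measured 25.6, 23.8 and 25.02 FPKM in betaine knockout, 22.5, 22.8 and 23.4 FPKM in knockout and 22.6, 21.4 and 17.1 FPKM in wild type libraries. Its knockout and wild type values overlapped, and it did not pass the test (log2 fold change 0.17 ± 0.13, adjusted p = 0.326, turning to -0.24 under TPM). As deposited, the 3 catalytic subunits of the constitutive core thus had unlike values, with Psmb7 at 0.17, Psmb5 at 0.91 and Psmb6 at 1.02 on the log2 scale. Their exon lengths were 3421, 899 and 1872 bases in that order. With the length trend removed Psmb7 had 0.12, Psmb5 0.43 and Psmb6 0.72. The difference between the 3 subunits was not tested.

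Among the noncatalytic beta subunits, Psmb3 measured 48.1, 31.7 and 38.9 FPKM in betaine knockout, 55.2, 57.5 and 55.3 FPKM in knockout and 32.8, 33.2 and 24.5 FPKM in wild type libraries. It rose in knockout livers (log2 fold change 0.89 ± 0.17, adjusted p = 0.00968) with no overlap. Psmb1 measured 29.9, 24.6 and 27.2 FPKM in betaine knockout, 34.05, 32.1 and 34.6 FPKM in knockout and 25.1, 23.3 and 21.7 FPKM in wild type libraries. It rose as well (log2 fold change 0.52 ± 0.12, adjusted p = 0.0155). Psmb4 (log2 fold change 0.50 ± 0.14, adjusted p = 0.0303) rose too. Psmb2 had 54.1, 40.2 and 47.7 FPKM in betaine knockout, 47.6, 53.3 and 54.7 FPKM in knockout and 35.5, 38.7 and 38.3 FPKM in wild type libraries. It passed the test as higher in knockout livers (log2 fold change 0.46 ± 0.14, adjusted p = 0.0362). With the length trend removed the log2 fold change was 0.04 for Psmb2 (adjusted p = 0.825) and 0.21 for Psmb4 (adjusted p = 0.153). The calls of Psmb2 and Psmb4 were lost without wild type replicate 3, and that of Psmb1 without knockout replicate 2 (adjusted p = 0.0533) or 3 (adjusted p = 0.0549).

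The alpha ring gates entry to the core. In knockout livers 3 of its 7 tested genes were higher and none lower, beside 12.8% and 12.7% of all tested genes. This count became 2 higher and 1 lower after rescaling to TPM, beside 4.96% and 31.0% of all tested genes. Psma7 measured 39.1, 29.4 and 34.3 FPKM in betaine knockout, 43.1, 45.8 and 40.8 FPKM in knockout and 26.8, 27.9 and 23.2 FPKM in wild type libraries. It rose in knockout livers (log2 fold change 0.73 ± 0.14, adjusted p = 0.00891) without overlap. Psma4 measured 60.7, 41.1 and 53.5 FPKM in betaine knockout, 66.7, 66.8 and 70.9 FPKM in knockout and 42.5, 38.7 and 37.8 FPKM in wild type libraries. It rose by a like amount (log2 fold change 0.77 ± 0.15, adjusted p = 0.00978). Psma2 measured 23.01, 17.4 and 18.9 FPKM in betaine knockout, 25.99, 26.7 and 24.1 FPKM in knockout and 17.4, 18.4 and 14.99 FPKM in wild type libraries. Psma2 rose in knockout livers (log2 fold change 0.59 ± 0.14, adjusted p = 0.0165), and its call was lost without knockout replicate 2 (adjusted p = 0.0684). The ring was not uniform, since Psma1 had 27.6, 28.8 and 31.5 FPKM in betaine knockout, 25.1, 23.9 and 25.02 FPKM in knockout and 25.9, 25.4 and 25.8 FPKM in wild type libraries. Psma3, Psma5 and Psma6 had log2 fold changes of 0.24, 0.39 and 0.30 that did not pass the test.

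FPKM levels within the core differed among subunits that occupy the particle in equal number. FPKM divides by union exon length, the merged length of all annotated exons of a gene. That length was 899 bases for Psmb5, 3673 for Psma2, 3894 for Psma3 and 3421 for Psmb7. Its part in this spread was not tested. In each library the highest of the 14 core transcripts per exon length was Psmb5, and the lowest was Psma2, Psma3 or Psmb7. The highest level was 5.17 to 5.98 times the lowest in betaine knockout libraries, 6.43 to 7.07 times in knockout libraries and 3.62 to 5.45 times in wild type libraries, with the lowest ratio in wild type replicate 3.

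**Figure D2:**
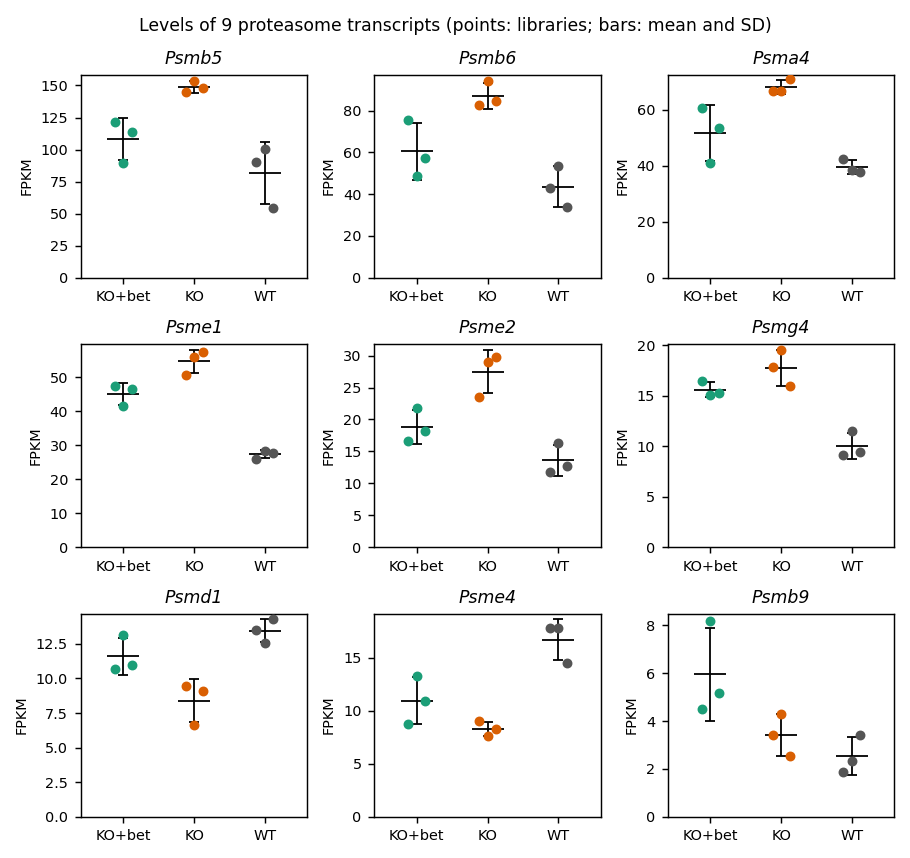
FPKM (vertical axes, each starting at 0) of 9 proteasome transcripts in each library (points), with mean and SD of the 3 libraries of a group (bars); KO+bet is betaine knockout, KO is knockout and WT is wild type. Psmb5, Psmb6, Psma4, Psme1, Psme2 and Psmg4 are highest in the knockout libraries, Psmd1 and Psme4 are lowest there, and Psmb9 is highest in the betaine knockout libraries.

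The regulatory particle had fewer calls. Of its 17 tested genes 4 were higher and 1 lower in knockout livers, beside 12.8% and 12.7% of all tested genes. Their median log2 fold change was 0.14. After rescaling to TPM none was higher and 6 were lower, with a median of -0.27 against -0.36 over all genes, of which 31.0% were called lower on that scale. Of the 6 base ATPases, which unfold the substrate, 2 were higher and none lower, and after rescaling to TPM none was higher and 1 lower. Psmc3 measured 44.8, 37.7 and 44.6 FPKM in betaine knockout, 54.6, 51.8 and 51.2 FPKM in knockout and 35.2, 33.2 and 30.6 FPKM in wild type libraries. It rose with no overlap between knockout and wild type (log2 fold change 0.66 ± 0.12, adjusted p = 0.00794), and lost its call after rescaling to TPM (adjusted p = 0.0753). Psmc5 measured 59.7, 40.5 and 56.03 FPKM in betaine knockout, 65.2, 63.04 and 58.4 FPKM in knockout and 43.7, 43.1 and 45.1 FPKM in wild type libraries. Psmc5 rose in knockout livers (log2 fold change 0.49 ± 0.15, adjusted p = 0.0429), and its call was lost with the length trend removed (adjusted p = 0.573) and without wild type replicate 3 (adjusted p = 0.0597).

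The 3 other base genes went different ways. Psmd1, a scaffold of the base, measured 10.7, 13.1 and 11 FPKM in betaine knockout, 9.46, 6.62 and 9.08 FPKM in knockout and 13.5, 12.6 and 14.3 FPKM in wild type libraries. All knockout values lay below the other groups, and Psmd1 fell in knockout livers (log2 fold change -0.67 ± 0.15, adjusted p = 0.0154). The call was lost without knockout replicate 2, the lowest library (adjusted p = 0.0592). Psmd4, a ubiquitin receptor, measured 41.9, 27.4 and 36.5 FPKM in betaine knockout, 44.4, 49.04 and 47.3 FPKM in knockout and 31.7, 32.3 and 26.1 FPKM in wild type libraries. It rose in knockout livers (log2 fold change 0.64 ± 0.17, adjusted p = 0.0232), although not without wild type replicate 3 (adjusted p = 0.0522). Psmd2, the other scaffold of the base, had a log2 fold change of -0.29 ± 0.13 that did not pass the test.

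In the lid, 1 of 8 genes was higher and none lower in knockout livers, beside 12.8% and 12.7% of all tested genes. After rescaling to TPM none was higher and 3 were lower, beside 4.96% and 31.0% of all tested genes. The lid counts thus lay near the shares of all genes. The lid gene called higher as deposited was Psmd14, which removes the ubiquitin chain from substrates. It measured 18.4, 17.8 and 19.4 FPKM in betaine knockout, 17.3, 14.7 and 18.1 FPKM in knockout and 13.7, 10.6 and 13.1 FPKM in wild type libraries. All knockout and betaine knockout values lay above wild type, with log2 fold change 0.41 ± 0.13, adjusted p = 0.049 for knockout minus wild type, and this call was lost in all 9 fits that left out 1 library and with the length trend removed (adjusted p = 0.18). The remaining lid genes had log2 fold changes between -0.18 (Psmd7) and 0.35 (Psmd12). With the length trend removed Psmd7 passed as lower (log2 fold change -0.41, adjusted p = 0.0211).

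Activators and the inhibitor held the widest range. Psme1, a subunit of the interferon-inducible activator cap, measured 47.2, 41.5 and 46.5 FPKM in betaine knockout, 50.6, 55.8 and 57.3 FPKM in knockout and 26.1, 28.4 and 27.6 FPKM in wild type libraries. As deposited the 3 groups did not overlap, with knockout highest and wild type lowest, while under TPM the log2 fold change of betaine knockout minus knockout turned to 0.09. Psme1 had the lowest adjusted p of the 47 genes in knockout against wild type (log2 fold change 0.98 ± 0.11, adjusted p = 0.00546). It kept this call under every scaling, with the length trend removed and when any library was left out. Its partner Psme2 measured 16.6, 21.8 and 18.1 FPKM in betaine knockout, 23.6, 29 and 29.8 FPKM in knockout and 11.8, 16.3 and 12.7 FPKM in wild type libraries. It rose similarly (log2 fold change 0.99 ± 0.16, adjusted p = 0.00669). Psme2b, a near-identical copy of Psme2, measured 53.9, 27.4 and 40.9 FPKM in betaine knockout, 53.7, 52.03 and 31.7 FPKM in knockout and 30.5, 29.4 and 35.2 FPKM in wild type libraries. It did not pass the test (log2 fold change 0.49 ± 0.27, adjusted p = 0.197). Reads of the copies may have been split or dropped, so both values are uncertain.

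Psme4, an activator linked to the degradation of acetylated histones, went the other way. It measured 8.75, 13.3 and 10.9 FPKM in betaine knockout, 9.01, 7.62 and 8.26 FPKM in knockout and 17.8, 17.8 and 14.5 FPKM in wild type libraries. The knockout and betaine knockout values all lay below wild type, and Psme4 fell in knockout livers (log2 fold change -0.96 ± 0.16, adjusted p = 0.00674). This call was kept under every scaling, with the length trend removed (log2 fold change -0.71) and in every fit that left out 1 library. It is also the longest transcript of the 47. Psme3, the activator of the nucleus, had a log2 fold change of -0.40 ± 0.14 (adjusted p = 0.0605). With the length trend removed Psme3 passed as lower (log2 fold change -0.51, adjusted p = 0.0327). Psmf1, an inhibitor of the core in vitro, measured 6.55, 5.66 and 5.88 FPKM in betaine knockout, 6.08, 5.94 and 5.37 FPKM in knockout and 4.70, 3.87 and 3.73 FPKM in wild type libraries. Psmf1 rose in knockout livers (log2 fold change 0.46 ± 0.13, adjusted p = 0.028), although not without wild type replicate 3 (adjusted p = 0.0635) and not after rescaling to TPM (adjusted p = 0.665).

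Assembly factors had 3 of 7 genes higher and none lower in knockout livers, beside 12.8% and 12.7% of all tested genes. After rescaling to TPM 2 were higher and 2 lower, beside 4.96% and 31.0% of all tested genes. Psmg1 to Psmg4 are chaperones of the core, and Psmd5, Psmd9 and Psmd10 are chaperones of the base. Psmg4 measured 16.5, 15.1 and 15.3 FPKM in betaine knockout, 17.9, 19.6 and 15.97 FPKM in knockout and 9.15, 11.5 and 9.46 FPKM in wild type libraries. It rose with no overlap between knockout and wild type (log2 fold change 0.80 ± 0.13, adjusted p = 0.00647). It is the shortest transcript of the 47, and with the length trend removed its log2 fold change was 0.26 (adjusted p = 0.121). Psmg3 measured 4.08, 2.24 and 2.65 FPKM in betaine knockout, 3.94, 3.95 and 3.27 FPKM in knockout and 1.91, 2.24 and 1.03 FPKM in wild type libraries, from 54 to 199 reads per library. It rose in knockout livers (log2 fold change 0.96 ± 0.25, adjusted p = 0.0225), and its call was lost without knockout replicate 1 (adjusted p = 0.0639) or 2 (adjusted p = 0.0789). Psmg1 measured 15.5, 12.3 and 13.8 FPKM in betaine knockout, 15.6, 18.7 and 15.5 FPKM in knockout and 12.5, 12.4 and 11.9 FPKM in wild type libraries. In knockout livers it rose (log2 fold change 0.42 ± 0.13, adjusted p = 0.0395), and with the length trend removed its log2 fold change was 0.02. The base chaperones Psmd5, Psmd9 and Psmd10 had log2 fold changes of -0.32, -0.26 and -0.06 that did not pass the test.

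**Figure D3:**
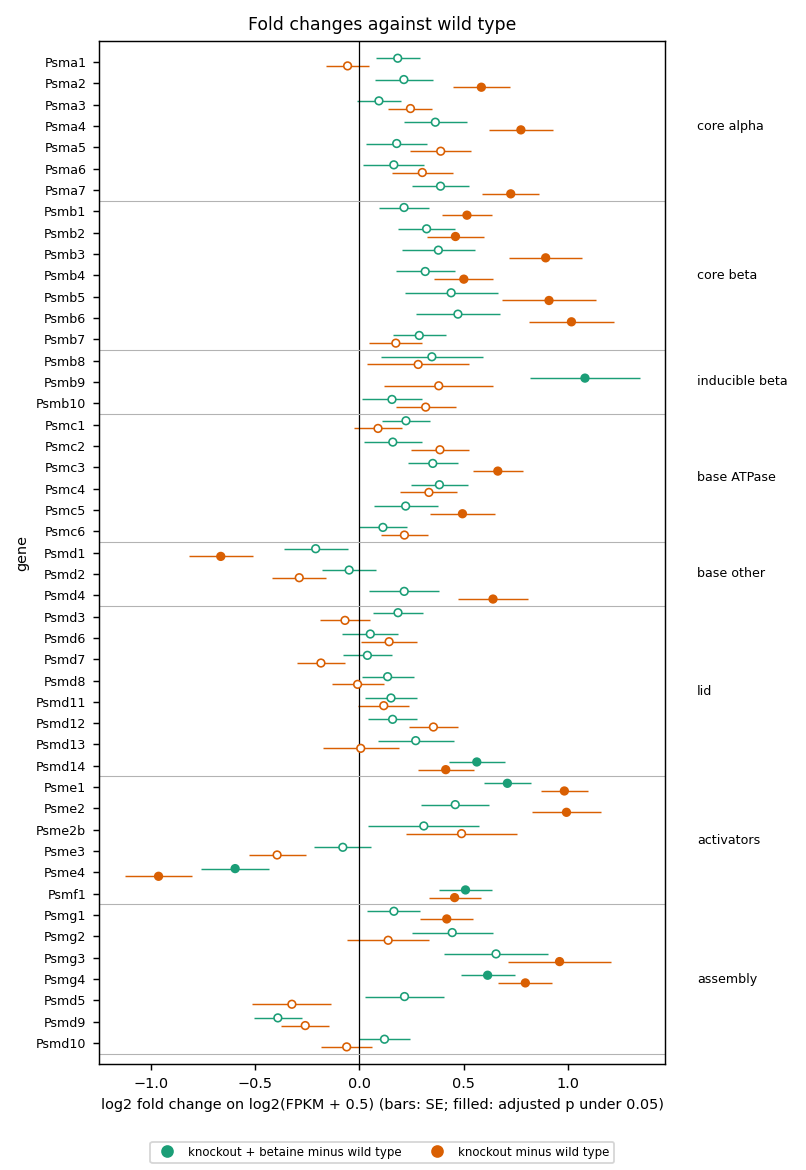
Log2 fold changes against wild type on the scale of log2(FPKM + 0.5) (horizontal axis) for 47 proteasome genes ordered by role (vertical axis), with betaine knockout in green above and knockout in orange below, SE as bars and filled points for adjusted p under 0.05. Most core beta genes are filled in orange and open in green; Psmb9 is filled in green alone, and Psme4 is filled on the negative side in both.

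The count of called proteasome genes changed when 1 library was left out, as did that of all genes, whose range stands in the last section. The proteasome count was 8 higher and 1 lower without knockout replicate 2, 10 higher without knockout replicate 3 and 11 higher without knockout replicate 1. It was 12 higher without wild type replicate 3, where 9.99% of all genes were called higher, against 12.8% with all 9 libraries. Shares of all genes in the other fits are not given here, so these counts are not read as a trait of proteasome genes. The 8 higher genes Psma4, Psma7, Psmb3, Psmb6, Psmc3, Psme1, Psme2 and Psmg4 and the lower gene Psme4 passed in all 9 fits that left out 1 library. Psmb2, Psmc5 and Psmg1 lost their calls without any of the 6 knockout or wild type libraries, and kept them in 2 of the 9 fits. Psmf1 lost its call without any knockout library or wild type replicate 2 or 3, and Psmd4 without any knockout library or wild type replicate 1 or 3. Psmb4 kept its call in 4 of the 9 fits.

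Betaine supplementation was then compared with plain water within the knockout. None of the 47 proteasome genes passed the test in either direction (limma; 16 had an unadjusted p under 0.05), in a comparison where 0.0169% of all genes were called higher and 0.0253% lower, that is 2 and 3 genes. The limma voom fit on recovered reads also called none, while rescaling to TPM called 14 higher, in a fit that called 14.2% of all genes higher and 0.616% lower. The median log2 fold change of the 47 genes was -0.14, against -0.002 over all genes. Under TPM it was 0.23 against 0.33 over all genes, and after scaling by own read totals 0.05 against 0.16. Its sign depended on the scaling, while it stayed below the median of all genes. This comparison shares the knockout libraries with that of knockout and wild type, so the values stand side by side without a test of their relation. For the constitutive core the medians were -0.26 for betaine knockout minus knockout and 0.51 for knockout minus wild type, and under TPM they were 0.11 and 0.09.

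The genes with the smallest p of their role in the betaine comparison had values on both sides of 0. Psma4 (-0.41 ± 0.15, adjusted p = 0.162), Psmb3 (-0.52 ± 0.17, adjusted p = 0.142), Psmc3 (-0.31 ± 0.12, adjusted p = 0.173) and Psme2 (-0.53 ± 0.16, adjusted p = 0.124) had negative log2 fold changes for betaine knockout minus knockout, with that of Psmc3 turning to 0.05 under TPM. In the values given above, betaine knockout lay below knockout in each of these genes without overlap. Psmd1 (0.46 ± 0.15, adjusted p = 0.141) and Psmb9 (0.70 ± 0.26, adjusted p = 0.165) had positive ones, and Psmd1 passed under TPM (adjusted p = 0.0382). Psmd3, a lid subunit, measured 24.7, 22.8 and 21.8 FPKM in betaine knockout, 19.7, 19.8 and 18.3 FPKM in knockout and 21.9, 21.1 and 17.9 FPKM in wild type libraries. Its betaine knockout values lay above knockout without overlap, but the gene did not pass (log2 fold change 0.25 ± 0.12, adjusted p = 0.24 for betaine knockout minus knockout). Psmd5 measured 4.10, 6.32 and 5.60 FPKM in betaine knockout, 3.55, 2.90 and 4.02 FPKM in knockout and 4.91, 4.98 and 3.62 FPKM in wild type libraries, with log2 fold change 0.54 ± 0.19, adjusted p = 0.147 for the same comparison. Under TPM both passed as higher in betaine knockout (adjusted p = 0.0281 for Psmd3 and 0.0371 for Psmd5). Across the 47 genes fold change and exon length had a Spearman rho of 0.40 in this comparison, the opposite sign to that of knockout and wild type.

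Betaine knockout was also compared with wild type, which asks what remains different when the knockout receives betaine. Here 5 of the 47 proteasome genes were higher and 1 lower, while 5.87% of all tested genes were called higher and 5.78% lower, and 8.96% higher and 1.72% lower among those of up to 2677 bases of exon. After rescaling to TPM Psme1 and Psmg4 were the 2 higher genes and none was lower, while 4.89% of all genes were called higher and 4.18% lower. The median log2 fold change was 0.22 against 0.005 over all genes, and 0.17 to 0.28 across TPM, own read totals and length removal, with 0.15 after quantile normalization. The genes called higher were Psmb9, Psmd14, Psme1, Psmf1 and Psmg4, and the gene called lower was Psme4. None of the 14 constitutive core genes passed (limma; 5 had an unadjusted p under 0.05, and rescaling to own read totals, which called 8.89% of all genes higher and 3.89% lower, called 1), with a median of 0.30.

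Psme1 (log2 fold change 0.71 ± 0.11, adjusted p = 0.00927) was the only one of the 6 to pass in all 9 fits that left out 1 library. Psmg4 (log2 fold change 0.62 ± 0.13, adjusted p = 0.0206) lost its call without betaine knockout replicate 1 or 3 or wild type replicate 1. Psmd14 (log2 fold change 0.56 ± 0.13, adjusted p = 0.0305) lost it without betaine knockout replicate 1 or 3 or wild type replicate 1 or 2. Psmf1 (log2 fold change 0.51 ± 0.13, adjusted p = 0.0335) and Psme4 (log2 fold change -0.60 ± 0.16, adjusted p = 0.0451) each kept it in 2 of the 9 fits. With the length trend removed Psmd14 (adjusted p = 0.0694) and Psme4 (adjusted p = 0.0796) did not pass. The values of all 5 genes stand above, and in each the betaine knockout libraries did not overlap with wild type. Among the roles without a call, the smallest p belonged to Psma7 (log2 fold change 0.39 ± 0.14, adjusted p = 0.0943), Psmb2 (log2 fold change 0.32 ± 0.14, adjusted p = 0.146), Psmc3 (log2 fold change 0.35 ± 0.12, adjusted p = 0.0845) and Psmd1 (log2 fold change -0.21 ± 0.15, adjusted p = 0.386).

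**Figure D4:**
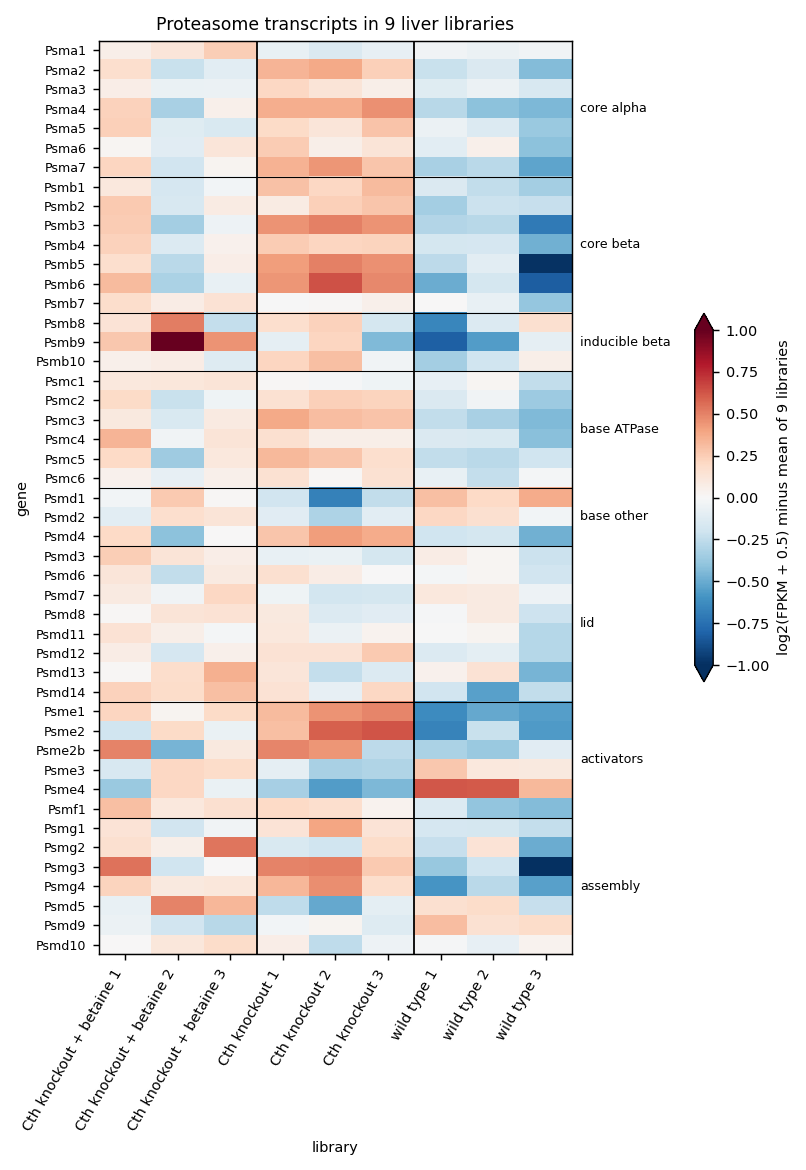
Level of 47 proteasome genes (rows, grouped by role) in 9 libraries (columns), as log2(FPKM + 0.5) minus the gene's mean over the 9 libraries, with red above and blue below that mean on a scale cut at -1 and 1. The knockout columns are red for most core genes and blue for Psmd1 and Psme4, wild type replicate 3 is the bluest column in the core, and Psmb9 is reddest in betaine knockout replicate 2.

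The inducible subunits were described on their own, since they replace the catalytic subunits of the core. None of the 3 tested genes passed in knockout against wild type (limma; none had an unadjusted p under 0.05), and Psmb9 passed in betaine knockout against wild type. Psmb9 (chromosome 17, bases 34181987 to 34187764 of GRCm38, minus strand) measured 4.51, 8.17 and 5.17 FPKM in betaine knockout, 3.40, 4.31 and 2.55 FPKM in knockout and 1.86, 2.32 and 3.40 FPKM in wild type libraries, from 107 to 554 reads. The betaine knockout values lay above the other groups without overlap, with betaine knockout replicate 2 highest, while knockout and wild type overlapped. Psmb9 rose in betaine knockout livers against wild type (log2 fold change 1.08 ± 0.26, adjusted p = 0.0325), and its log2 fold change was 1.28 without wild type replicate 3 (adjusted p = 0.0191). The call was lost after rescaling to TPM (log2 fold change 1.11, adjusted p = 0.0706) and kept in 4 of the 9 fits that left out 1 library. It was lost without betaine knockout replicate 2 (adjusted p = 0.0636) or 3 (adjusted p = 0.0798), wild type replicate 1 (adjusted p = 0.0921) or 2 (adjusted p = 0.08) and knockout replicate 1 (adjusted p = 0.0528).

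Tap1, which shares the promoter stretch printed above, measured 4.63, 8.49 and 5.82 FPKM in betaine knockout, 2.80, 2.51 and 2.80 FPKM in knockout and 2.28, 2.62 and 3.59 FPKM in wild type libraries. It rose in betaine knockout livers against wild type (log2 fold change 1.01 ± 0.21, adjusted p = 0.021). Its log2 fold change was 1.05 ± 0.21 for betaine knockout minus knockout (adjusted p = 0.0837, and 0.0441 without wild type replicate 3) and -0.04 ± 0.21 for knockout minus wild type (adjusted p = 0.906). In both genes betaine knockout replicate 2 held the highest value. In GENCODE M21 the exons of Psmb9 and Tap1 overlap by 212 bases on opposite strands. Whether counting used strand is not stated, so a share of the reads of either gene cannot be assigned. After rescaling to TPM the call of Tap1 in betaine knockout against wild type was lost (adjusted p = 0.0641). The summed level of 7 leukocyte markers was 1.63 to 5.16 FPKM in betaine knockout, 1.71 to 2.03 FPKM in knockout and 2.34 to 3.85 FPKM in wild type libraries, with none of the 7 at 0 in a whole group. The value of 5.16 FPKM was that of betaine knockout replicate 2, and the other 2 betaine libraries had 1.66 and 1.63 FPKM. Nkg7, a marker of cytotoxic lymphocytes, had 2.72 FPKM in that library. The summed level of 7 Kupffer cell markers was 46.7 to 108 FPKM in betaine knockout, 62.2 to 74.3 FPKM in knockout and 88.2 to 118 FPKM in wild type libraries. The value of 108 FPKM was again that of betaine knockout replicate 2. The part of these markers in the levels of the inducible subunits was not tested.

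Psmb8 measured 6.81, 8.98 and 5.14 FPKM in betaine knockout, 6.95, 7.29 and 5.37 FPKM in knockout and 3.74, 5.55 and 6.91 FPKM in wild type libraries. The 3 groups overlapped, and no comparison passed the test (log2 fold change 0.28 ± 0.24, adjusted p = 0.411 for knockout minus wild type and log2 fold change 0.35 ± 0.24, adjusted p = 0.369 for betaine knockout minus wild type). Under TPM the log2 fold change of Psmb8 for knockout minus wild type was -0.11 and that of Psmb10, given next, was -0.09. Psmb10 measured 18.7, 19.02 and 16.5 FPKM in betaine knockout, 21.1, 22.4 and 17.6 FPKM in knockout and 14.2, 15.7 and 18.9 FPKM in wild type libraries. It was the most abundant of the inducible subunits per exon length in each library and also overlapped among groups (log2 fold change 0.32 ± 0.14, adjusted p = 0.132 for knockout minus wild type).

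Each inducible subunit was set against the constitutive one it replaces, as log2 of the ratio of FPKM + 0.5, with a two-sided exact permutation test whose smallest possible p is 0.1. Psmb9 over Psmb6 was -3.92, -2.50 and -3.35 in betaine knockout, -4.41, -4.30 and -4.81 in knockout and -4.20, -4.26 and -3.15 in wild type libraries. It was higher in every betaine knockout library than in every knockout library (difference 1.25, exact p = 0.1). With 0.5 FPKM added, it was lower in every knockout library than in every wild type library (difference -0.64, exact p = 0.1). That separation was lost with 0.1 FPKM added (difference -0.59, exact p = 0.3). With nothing added, Psmb9 was 4.57% of Psmb6 in knockout replicate 2, above the 4.33% in each of wild type replicates 1 and 2. Without wild type replicate 3 the difference was -0.28. Betaine knockout and wild type overlapped (difference 0.61, exact p = 0.3, and 0.23 without betaine knockout replicate 2). Psmb8 over Psmb5 was -4.06, -3.25 and -4.33 in betaine knockout, -4.29, -4.31 and -4.66 in knockout and -4.42, -4.06 and -2.89 in wild type libraries. It overlapped in each comparison (difference -0.63 for knockout minus wild type, exact p = 0.3, and 0.54 for betaine knockout minus knockout, exact p = 0.3). The first difference was -0.18 without wild type replicate 3, and the second was 0.22 without betaine knockout replicate 2. Psmb10 over Psmb7 was -0.44, -0.32 and -0.58 in betaine knockout, -0.10, -0.02 and -0.40 in knockout and -0.65, -0.43 and 0.14 in wild type libraries. These groups overlapped throughout. Wild type replicate 3 held the highest value of its group in each of the 3 ratios. The length trend was not removed from these ratios. The paired genes differ in exon length, as in Psmb8 with 3381 bases and Psmb5 with 899. With the trend removed, log2 fold changes for knockout minus wild type were 0.23 for Psmb8 and 0.43 for Psmb5. They were 0.36 for Psmb9 and 0.72 for Psmb6, and -0.02 for Psmb10 and 0.12 for Psmb7. For betaine knockout minus knockout they were 0.68 for Psmb9 and -0.42 for Psmb6. The part of length in the ratios was not tested.

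**Figure D5:**
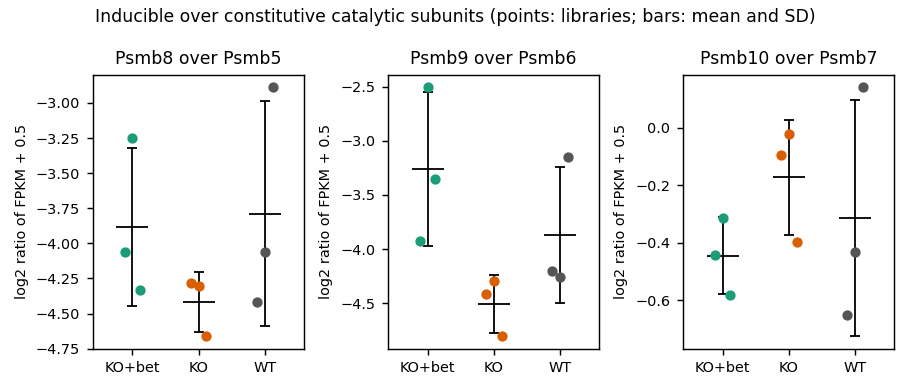
Log2 ratio of FPKM + 0.5 of each inducible subunit to the constitutive subunit it replaces (vertical axes) in each library (points), with mean and SD of the 3 libraries of a group (bars). For Psmb9 over Psmb6 the betaine knockout points lie above all knockout points, and the knockout points lie below all wild type points on this scale but not when 0.1 FPKM is added; for Psmb8 over Psmb5 and Psmb10 over Psmb7 the groups overlap.

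Other genes of the ubiquitin and proteasome pathway came from a list of 39, of which 37 were tested. In knockout against wild type 4 were higher and 7 lower, beside 12.8% and 12.7% of all genes, with a median log2 fold change of -0.04. Under TPM 1 was higher and 21 lower (4.96% and 31.0% of all genes). With the length trend removed 4 were higher and 4 lower (9.01% and 9.56% of all genes). Of the 4 higher genes 3 are parts or partners of the proteasome. Sem1, a small lid subunit whose symbol lies outside the Psm pattern, measured 17.7, 10.3 and 11.97 FPKM in betaine knockout, 20.1, 22.96 and 19.7 FPKM in knockout and 8.91, 10.7 and 6.84 FPKM in wild type libraries. It rose with no overlap between knockout and wild type (log2 fold change 1.22 ± 0.21, adjusted p = 0.00725). Pomp, the maturation factor of the core, measured 20.96, 19.5 and 22.1 FPKM in betaine knockout, 24.4, 25.6 and 23.5 FPKM in knockout and 15.5, 18.01 and 14.4 FPKM in wild type libraries. It rose (log2 fold change 0.61 ± 0.12, adjusted p = 0.01), although not after rescaling to TPM (adjusted p = 0.177). Txnl1, a thioredoxin bound to the regulatory particle, and Ubxn1, a cofactor of the unfoldase Vcp, passed with log2 fold changes of 0.38 and 0.69. Neither passed without wild type replicate 3, and after rescaling to TPM that of Txnl1 was -0.04.

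The 7 lower genes were shuttles of substrates, a cofactor of the unfoldase Vcp, ubiquitin enzymes and enzymes that process Nfe2l1. Ddi2, a protease that activates Nfe2l1, measured 13.4, 15.5 and 14.9 FPKM in betaine knockout, 13.6, 16.3 and 14.4 FPKM in knockout and 26.2, 25.6 and 21.3 FPKM in wild type libraries. All knockout and betaine knockout values lay below wild type, and it fell in knockout (log2 fold change -0.70 ± 0.13, adjusted p = 0.00826) and in betaine knockout livers (log2 fold change -0.72 ± 0.13, adjusted p = 0.0124) against wild type. Ubqln4, a shuttle that carries ubiquitinated proteins, measured 6.44, 7.90 and 8.89 FPKM in betaine knockout, 7.60, 7.36 and 8.32 FPKM in knockout and 11.9, 12.8 and 10.6 FPKM in wild type libraries. It fell in knockout (log2 fold change -0.57 ± 0.14, adjusted p = 0.0186) and in betaine knockout livers (log2 fold change -0.58 ± 0.14, adjusted p = 0.0305). The shuttle Ubqln2 measured 4.58, 7.39 and 7.58 FPKM in betaine knockout, 5.71, 3.71 and 4.58 FPKM in knockout and 9.19, 8.10 and 9.18 FPKM in wild type libraries. It fell in knockout livers (log2 fold change -0.87 ± 0.20, adjusted p = 0.0165). Nploc4, a cofactor of Vcp, measured 10.4, 20.1 and 15.2 FPKM in betaine knockout, 12.5, 10.6 and 10.97 FPKM in knockout and 22.3, 23.7 and 19.6 FPKM in wild type libraries. It fell in knockout livers (log2 fold change -0.92 ± 0.21, adjusted p = 0.0149). The calls of Ubqln2, Ubqln4 and Nploc4 in knockout against wild type were lost without knockout replicate 2 (adjusted p = 0.0692, 0.0743 and 0.0613). That of Ubqln2 was also lost without wild type replicate 1, and that of Ubqln4 without knockout replicate 1 or wild type replicate 1 or 2. The call of Ubqln4 in betaine knockout against wild type was kept in 3 of the 9 fits that left out 1 library and was lost after scaling by own read totals (adjusted p = 0.0517). Ngly1, which removes glycans from Nfe2l1, the ubiquitin-activating enzyme Uba6 and the ligase Ube3c passed with log2 fold changes of -0.49, -0.68 and -0.92. None of these 3 passed with the length trend removed (adjusted p = 0.178, 0.129 and 0.0606). Without wild type replicate 3 Uba6 (adjusted p = 0.0909) and Ube3c (adjusted p = 0.0539) did not pass.

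The transcription factors themselves did not pass the test in knockout against wild type. Nfe2l1 measured 20.2, 19.5 and 22.1 FPKM in betaine knockout, 21.2, 25.4 and 21.9 FPKM in knockout and 28.3, 31.7 and 22.5 FPKM in wild type libraries, with log2 fold change -0.25 ± 0.15, adjusted p = 0.225 for knockout minus wild type. Nfe2l2, the related regulator of antioxidant genes, measured 11.7, 12.95 and 12.9 FPKM in betaine knockout, 8.97, 8.73 and 10.9 FPKM in knockout and 13.4, 17.9 and 10.9 FPKM in wild type libraries, with log2 fold change -0.52 ± 0.17, adjusted p = 0.0563 for the same comparison. Wild type replicate 3 was the lowest of its group in both genes. Without it Nfe2l2 was called lower in knockout livers (log2 fold change -0.68, adjusted p = 0.0210), and Nfe2l1 was called lower in betaine knockout livers (log2 fold change -0.53, adjusted p = 0.0334). After rescaling to TPM both were called lower in knockout livers (adjusted p = 0.00488 for Nfe2l1 and 0.00561 for Nfe2l2). No gene of the list was called in betaine knockout against knockout as deposited with every library (limma, where 11 had an unadjusted p under 0.05). After rescaling to TPM Nfe2l2 was called higher in that comparison (log2 fold change 0.75, adjusted p = 0.0329), in a fit that called 14.2% of all genes higher. Without betaine knockout replicate 1 Sem1 was called lower in it (log2 fold change -0.88, adjusted p = 0.0373).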

How the data were processed

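RNA of 9 mouse liver libraries (3 per group) was sequenced by poly-A selection with a NEBNext Ultra kit, per the labels' protocols. The submitters' processing notes name HISAT2 2.0.5, featureCounts 1.5.0-p3, DESeq2 1.16.1 and build mm10; strand use in counting is not given in the sources used here. The authors deposited 1 FPKM value per gene and library, and no counts were used. Whole reads were recovered from FPKM and union exon lengths of GENCODE M21 (GRCm38); of values that came to 20 reads or fewer, 98.3% to 98.6% were whole to within 0.05. The sum of FPKM ranged from 373773 to 584197, highest in the knockout libraries.

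Genes averaging 0.5 FPKM or more over the libraries were tested on log2(FPKM + 0.5) in 1 limma 3.58.1 model (R 4.3.3, eBayes with trend and robust) over all 9 libraries, two-sided, with Benjamini-Hochberg adjustment over 11852 genes within each contrast and a threshold of 0.05. Fold changes (± SE) are on that scale, which understates those of low genes, and are the first-named group minus the other. The pipeline was tested on simulated data. Motifs were searched on both strands of RefSeq windows. The proteasome genes, the other lists and the roles were chosen with earlier results of these data known, so no test was run over a list. Values are given for Cth, Psmb5 to Psmb10, up to 3 called genes of each role with the smallest p (or 1 where none passed), up to 6 called pathway genes, Pomp, Nfe2l1 and Nfe2l2; Tap1, Psma1, Psmb4, Psmd2, Psme2b and Psme3 and the other genes named with a fold change were added after their values were seen. Alternatives were other pseudocounts, filters, scalings, length removal, models, a replicate block and leaving out each library. The pathway gene Paaf1 was not analysed here, and counts over a list of interferon genes are not reported here. The other software was matplotlib 3.10.9, pandas 2.3.3 and numpy 2.4.6 under Python 3.11.15.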

Additional observations from a re-analysis of the deposited data

How the results depend on the processing

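Each alternative chosen at the start could be run. In knockout minus wild type, the count of proteasome genes called higher was 11 with no filter on low values, 9 after rescaling to TPM and 9 with the length trend removed and without wild type replicate 3. The count called lower was 11 under TPM, 5 after quantile normalization, 5 relative to own read totals and 4 with the length trend removed. Of all tested genes, 3674, 1628, 1952 and 1133 were called lower in these same fits. The median log2 fold change of the proteasome genes turned to -0.0583 under TPM and was 0.2090 after quantile normalization, 0.2296 relative to own read totals, 0.1243 with the length trend removed and 0.1637 when wild type replicate 3 was also left out. The number of all genes called was 1865 with no filter and 1895 with the length trend removed and without wild type replicate 3. Leaving out each library gave 8 to 20 proteasome genes higher, 1 to 3 lower, medians of 0.2982 to 0.3776 and 896 to 3231 genes called. In betaine knockout minus knockout, rescaling to TPM called 14 proteasome genes higher and 1754 genes in all. The median turned to 0.2253 under TPM and 0.0494 relative to own read totals, and was -0.0412 after quantile normalization, -0.0151 with the length trend removed and -0.0153 when wild type replicate 3 was also left out. The number of genes called was 8 and 10 with pseudocounts of 0.1 and 1 FPKM, 1 with no filter, 67 relative to own read totals, 219 with the length trend removed and without wild type replicate 3, 0 with eBayes without trend and robust, 35 with only the knockout groups in the fit and 8 with limma voom. Leaving out each library gave 0 to 878 genes called, with 878 without betaine knockout replicate 1 and 273 without wild type replicate 3, medians of -0.1873 to -0.0751 and no proteasome gene called. In betaine knockout minus wild type, the proteasome genes called higher were 1 with no filter, 2 under TPM, 8 relative to own read totals and 1 with only those groups in the fit. The count called lower was 0 in each of these, with the length trend removed and with eBayes without trend and robust. The median was 0.1454 after quantile normalization, 0.2763 relative to own read totals and 0.1244 with the length trend removed and without wild type replicate 3. The number of genes called was 531 with no filter and 353 with only those groups in the fit. Leaving out each library gave 1 to 5 proteasome genes higher, 0 to 1 lower, medians of 0.1642 to 0.2726 and 351 to 1441 genes called. The difference in log2 Psmb8 over Psmb5 between betaine knockout and wild type turned to 0.1336 without betaine knockout replicate 3 and 0.3590 without wild type replicate 3, with a range of -0.4089 to 0.3590. That in log2 Psmb10 over Psmb7 turned to -0.0256 without wild type replicate 1 for knockout minus wild type (range -0.0256 to 0.3716) and to 0.0974 without wild type replicate 3 for betaine knockout minus wild type (range -0.2999 to 0.0974). The cause of these changes was not tested. With the replicate number as a block, 14 proteasome genes were higher and 2 lower in knockout against wild type. The shares of all genes called in that comparison are not given here, so this count is not read as a trait of proteasome genes. With the block no proteasome gene was called in betaine knockout against knockout (0 of all genes). In betaine knockout against wild type 4 were then higher and 0 lower (671 of all genes). Deviations of same-numbered libraries from their group means had correlations of -0.227 to 0.098, against -0.137 to 0.263 for differently numbered ones. Whether the numbers pair libraries cannot be told from these values, since a small shared effect need not show in them. Low read numbers limit Psma8, with 1 to 19 reads per library, and Psmc3ip, and both fell below the filter of 0.5 FPKM.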
